A study of Arabidopsis thaliana with 35 samples.

Results

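The genotype by heat interaction at dawn is the part of the 37 °C response that differed between *cca1lhy* and WT *Arabidopsis* seedlings. For each gene it is the *cca1lhy* change, 37 °C minus 22 °C, minus the WT change, so a positive value means a higher response in *cca1lhy* and a negative value a lower one. It rests on 16 of the 35 libraries of the series, 4 each of WT at 22 °C, WT at 37 °C, *cca1lhy* at 22 °C and *cca1lhy* at 37 °C, all collected at ZT1, 1 h after lights on. The 7 libraries of the same time of day at 10 °C, 3 of WT and 4 of *cca1lhy*, served for comparison and for the estimate of the spread. WT is Col-0. *cca1lhy* is a single line in the same background that carries the *cca1-1* and *lhy-20* insertions. All seedlings were 12 days old, grew in light and dark cycles at 22 °C, and were moved at lights on for 1 h to 37 °C or 10 °C or stayed at 22 °C. RNA came from whole seedlings, so fewer cells of a type and less RNA per cell cannot be told apart. The paper states that gene expression peaks earlier in *cca1lhy* than in WT under light and dark cycles. At ZT1 alone, such a shift in phase and a changed response to heat cannot be told apart either.

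*CCA1* and *LHY* encode related MYB transcription factors that peak around dawn and repress genes of the evening, among them the pseudo-response regulator *PRR5* and *GI*. They bind a short promoter sequence named the evening element and its relatives. PRR proteins repress *CCA1* and *LHY* in turn, which closes the feedback loop. Heat acts through another set of factors, the heat shock factors (HSFs), which induce chaperones such as the small heat shock proteins, HSP70, HSP90 and HSP101, while many photosynthesis genes lose transcript in the heat.

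Values are log2 CPM as deposited (CPM, the read count of a gene scaled to the size of its library), and a gene without reads sits at the lowest value, 1.23. The 16 libraries held 1.13 to 3.97 M reads assigned to genes, as recovered from the steps of the values, and 19934 to 23324 genes above the lowest value. The deepest and the shallowest of them were both WT at 22 °C, and the 37 °C libraries held 1.27 to 1.94 M. The highest correlation between any pair of ZT1 libraries was 0.989, and no pair was identical. The 9 leaf and shoot markers were above the lowest value in every library, with summed levels of 4157 to 5937 CPM in WT and 4172 to 5537 in *cca1lhy* at 22 °C, and of 1998 to 2519 and 2622 to 3180 at 37 °C. Of 15 root markers 12 or 13 were above it in all libraries of a group. *NRT2.1* was at the lowest value throughout WT at 22 °C and 37 °C, and *PLT1* throughout WT at 37 °C. The sums of the root markers were 234 to 354 CPM in WT and 220 to 336 in *cca1lhy* at 22 °C, and 101 to 235 and 128 to 152 at 37 °C.

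*CCA1* (AT2G46830) was at 8.83, 8.26, 8.52 and 8.72 log2 CPM in replicates 1 to 4 of WT at 22 °C and at 8.71, 8.39, 8.93 and 8.85 at 37 °C. In *cca1lhy* it was at 2.29, 5.29, 2.48 and 2.03 at 22 °C and at 2.67, 2.55, 2.15 and 3.11 at 37 °C. The genotypes did not overlap at either temperature, but replicate 2 of *cca1lhy* at 22 °C stood well above the other mutant libraries, so counts are also given without it. The interaction of *CCA1* was -0.54 ± 0.60 (SE, 4 libraries a group here and below), with an adjusted p of 0.751 in limma. *LHY* (AT1G01060) behaved differently. It was at 9.41, 8.44, 8.80 and 9.27 in WT at 22 °C and at 7.15, 6.74, 7.21 and 7.15 at 37 °C, and at 6.55, 6.88, 6.21 and 5.94 in *cca1lhy* at 22 °C and 6.40, 6.34, 6.16 and 6.07 at 37 °C. *LHY* fell in WT by 1.92 and its *cca1lhy* response was -0.15, an interaction of 1.77 ± 0.28 (adjusted p = 0.00178). Every mutant library stayed below every WT library of its temperature. In *cca1lhy* the *LHY* reads come from the gene with the *lhy-20* insertion, so they measure the transcript that remains of it.

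Of 37898 gene identifiers 25727 had reads in 3 or more ZT1 libraries and were tested. The interaction was called at an adjusted p under 0.05 for 235 genes, 0.913% of those tested. In 99 genes (0.385%) it was higher in *cca1lhy* and in 136 genes (0.529%) lower, and 203 of the 235 differed by more than 1 on the log2 scale. The median interaction over all genes tested was close to 0, with a median standard error of 0.30. The same design called 3414 genes (13.3%) for the WT response to 37 °C and 3273 (12.7%) for the *cca1lhy* response, at an adjusted p under 0.05 and a change over 2-fold. The 235 calls use a spread estimated from all ZT1 libraries. The 10 °C libraries among them held 1.82 to 10.2 M reads in WT and 1.72 to 11.1 M in *cca1lhy*. Their root mean square deviations from the group means were 0.16 to 0.23 in WT and 0.24 to 0.26 in *cca1lhy*. These deviations were 0.26 to 0.35 and 0.22 to 0.28 at 22 °C, and 0.31 to 0.35 and 0.28 to 0.31 at 37 °C. Fitted to the 22 °C and 37 °C libraries alone, the interaction was called for 120 genes, 115 of them among the 235. Without replicate 2 of *cca1lhy* at 22 °C the interaction was called for 164 genes. Leaving out replicate 4 of WT at 22 °C gave 140 genes, and leaving out replicate 2 of that group gave 314.

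A response called in a single genotype was the commonest pattern. Among the 136 lower genes 46 rose in WT and were not called in *cca1lhy*, 21 rose in both genotypes, 32 fell in *cca1lhy* and were not called in WT, 2 fell in both, and 35 were called in neither. Among the 99 higher genes 30 fell in WT and were not called in *cca1lhy*, 20 rose in *cca1lhy* and were not called in WT, 10 rose in both, 3 fell in both, and 36 were called in neither. A gene called as a rise in one genotype and as a fall in the other did not occur. These counts break the interaction into its parts and are no test of it. The median lower gene rose by 0.99 in WT and changed by -0.21 in *cca1lhy*, and the median higher gene changed by -0.69 and 0.72.

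**Figure D1:**
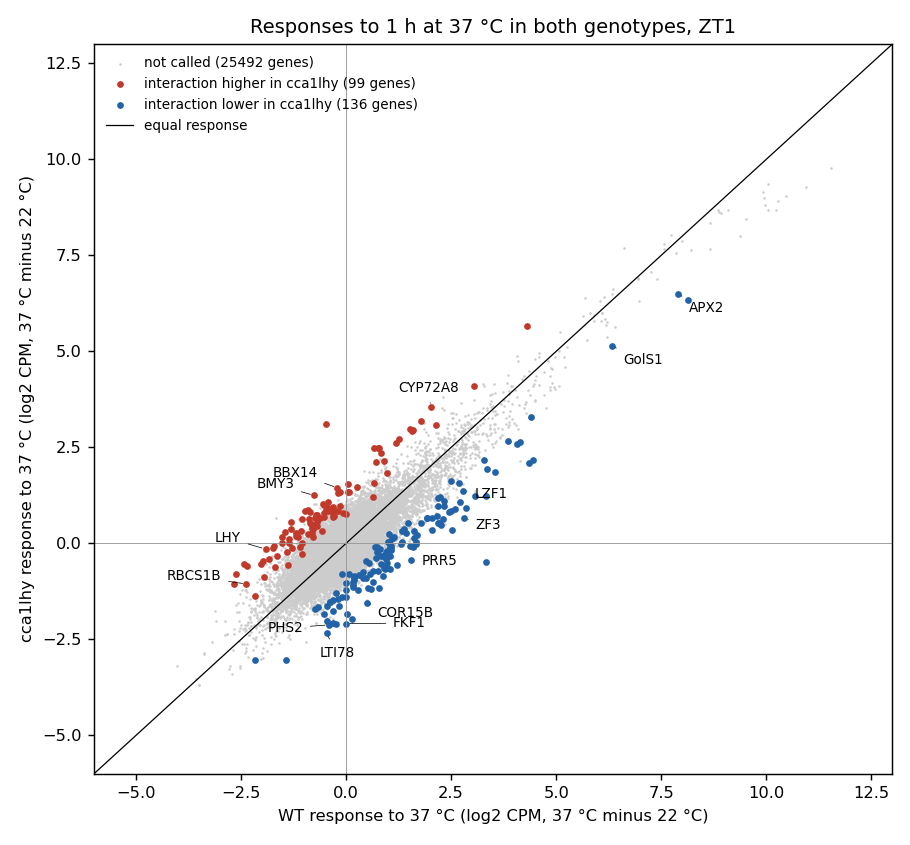
Response to 1 h at 37 °C in WT (x axis) and in *cca1lhy* (y axis), both as 37 °C minus 22 °C in log2 CPM, with a point for each of the 25727 genes tested and the line of equal response. The 136 lower genes (blue) lie below the line and the 99 higher genes (red) above it, and *APX2* and *GolS1* lie among the genes with the largest rises in both genotypes.

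Among the clock genes, the evening repressor *PRR5* and the blue-light receptor *FKF1* carried the lower interactions. *PRR5* (AT5G24470), which represses *CCA1* and *LHY*, was at 2.28, 1.23, 1.81 and 1.82 log2 CPM in WT at 22 °C and at 3.22, 3.09, 3.67 and 3.53 at 37 °C. In *cca1lhy* it was already at 6.11, 5.63, 6.16 and 5.92 at 22 °C and stayed at 5.93, 5.82, 5.80 and 5.87 at 37 °C. *PRR5* thus rose in WT by 1.59, its *cca1lhy* response was -0.10, and the interaction was -1.69 ± 0.28 (adjusted p = 0.0031). WT at 22 °C lay near the lowest value, so the size depends on the offset, at -0.98 with values below 2.5 raised to 2.5 and -2.45 on recovered reads, and the call held in both. The WT and mutant libraries did not overlap at either temperature. *FKF1* (AT1G68050), an F-box protein of the photoperiod pathway, was at the lowest value in all 8 WT libraries. It was at 5.56, 5.87, 5.48 and 5.81 in *cca1lhy* at 22 °C and at 3.81, 3.09, 3.73 and 3.74 at 37 °C, so all mutant libraries were lower in the heat and WT was at the lowest value at both temperatures. A fall in WT could not show at the lowest value. The interaction of *FKF1*, -2.09 ± 0.26 (adjusted p = 0.000257), is therefore the *cca1lhy* response alone. It does not tell whether the genotypes respond differently.

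The evening clock list of 17 genes had 0 higher and 2 lower calls, against 0.385% and 0.529% of all genes tested, and its median interaction was -0.52. At 22 °C 11 of the 17 were higher in *cca1lhy* than in WT, against 1.33% of all genes, and at 37 °C 8, against 1.31%, with median genotype differences of 1.21 and 0.91. Not all evening genes moved. The core repressor *TOC1* had an interaction of 0.02, and *LUX* and *ELF3*, both of the evening complex, of 0.00 and 0.03, although all 3 stood higher in *cca1lhy* at both temperatures, by 2.02 and 2.04 in the case of *TOC1*. *ELF4*, the other evening complex member, had -0.97 (adjusted p = 0.20), *GI* -0.76 (adjusted p = 0.37), and the RNA-binding proteins *GRP7* and *GRP8* -1.15 each (adjusted p = 0.15 and 0.11). In the morning and day clock list of 16 genes *LHY* was the called gene, and the median interaction was -0.21. *PRR7* had -0.78 and *PRR9* -0.71, with adjusted p of 0.19 and 0.20.

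The promoters of *PRR5*, *FKF1* and the aldolase gene *FBA5* are shown because each holds the evening element that CCA1 and LHY bind, while the interactions were -1.69 and -2.09 for the former pair and 1.76 for *FBA5*. Each is the 300 bases before the annotated start, read from the RefSeq TAIR10.1 assembly, since the deposited tables carry no coordinates, and is printed 5′ to 3′ on the strand of the gene. Capitals mark the evening element, AAAATATCT, which occurs here on the opposite strand and so reads AGATATTTT. *PRR5* lies at chr5:8358547-8358846 on the minus strand, *FKF1* at chr1:25508339-25508638 on the plus strand, and *FBA5* at chr4:13390454-13390753 on the plus strand.
PRR5: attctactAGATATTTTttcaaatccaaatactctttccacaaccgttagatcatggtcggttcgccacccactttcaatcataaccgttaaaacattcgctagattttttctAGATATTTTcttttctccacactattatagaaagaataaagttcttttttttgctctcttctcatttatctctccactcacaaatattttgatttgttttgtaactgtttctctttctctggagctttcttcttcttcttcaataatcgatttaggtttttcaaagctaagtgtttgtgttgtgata
FKF1: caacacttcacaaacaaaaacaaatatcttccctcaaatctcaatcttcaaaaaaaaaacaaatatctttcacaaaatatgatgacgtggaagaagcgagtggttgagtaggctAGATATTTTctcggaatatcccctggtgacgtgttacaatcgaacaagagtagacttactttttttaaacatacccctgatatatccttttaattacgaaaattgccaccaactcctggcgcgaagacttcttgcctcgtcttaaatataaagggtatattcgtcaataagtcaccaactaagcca
FBA5: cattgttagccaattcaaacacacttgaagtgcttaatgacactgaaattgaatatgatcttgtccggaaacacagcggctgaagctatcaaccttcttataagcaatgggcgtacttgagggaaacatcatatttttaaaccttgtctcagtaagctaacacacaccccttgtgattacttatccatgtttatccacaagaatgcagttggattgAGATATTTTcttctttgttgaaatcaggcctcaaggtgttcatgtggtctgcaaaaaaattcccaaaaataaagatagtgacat

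Searched on both strands, the evening element was in 9 of the 126 promoters of lower genes (7.14%), in 4 of the 86 of higher genes (4.65%) and in 645 of the 22774 of all genes tested (2.83%). In the evening clock list 8 of 17 promoters held it. The related CCA1-binding site, AAAAATCT, was in 9.52%, 5.81% and 7.78% of the same promoter groups. The evening element does not contain the CCA1-binding site. These matches are a description of the letters in this window, with no test.

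Cold-response genes formed the group with the lowest median interaction. Many such genes protect cells against cold and water loss and are induced by the CBF factors through the CRT/DRE element. The list used here also holds *CBF1*, *CBF2*, *CBF3* and the CBF inducer *ICE1*. *LTI78* (AT5G52310), also known as *RD29A*, was at 8.51, 8.29, 7.74 and 8.24 log2 CPM in WT at 22 °C and at 7.42, 7.47, 8.25 and 7.77 at 37 °C, and in *cca1lhy* at 10.11, 10.34, 10.13 and 10.31 at 22 °C and at 7.53, 7.63, 8.14 and 8.20 at 37 °C. All mutant libraries at 22 °C were above all others, and at 37 °C the genotypes overlapped. *LTI78* fell by 2.35 in *cca1lhy* and its WT response was -0.47, an interaction of -1.88 ± 0.29 (adjusted p = 0.00153). The promoter of *LTI78*, chr5:21240417-21240716 on the plus strand of TAIR10.1, is shown for the 3 copies of the CRT/DRE core CCGAC in capitals.
LTI78: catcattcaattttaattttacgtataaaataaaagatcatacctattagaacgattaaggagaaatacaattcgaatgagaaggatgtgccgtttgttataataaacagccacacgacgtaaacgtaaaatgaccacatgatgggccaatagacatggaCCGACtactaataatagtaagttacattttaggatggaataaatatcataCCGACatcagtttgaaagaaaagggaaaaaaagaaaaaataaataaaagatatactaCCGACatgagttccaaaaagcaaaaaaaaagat

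*COR15B* (AT2G42530), a chloroplast protein that stabilises membranes in the cold, went the same way. It was at 4.89, 5.41, 3.92 and 3.73 in WT at 22 °C, at 5.24, 4.99, 5.27 and 4.39 at 37 °C, at 7.66, 7.61, 8.31 and 8.37 in *cca1lhy* at 22 °C and at 5.93, 6.06, 6.72 and 7.01 at 37 °C, an interaction of -2.04 ± 0.44 (adjusted p = 0.0231). Its call held in 10 of the 16 fits that leave out 1 library, with an adjusted p of up to 0.0598, without replicate 4 of WT at 22 °C, and under 8 of 9 alternatives in the trend, filter, scaling, weights, block or libraries of the fit. The dehydrins *COR47* (AT1G20440) and *ERD10* (AT1G20450) rose in the heat in WT, by 2.34 and 1.92, and their *cca1lhy* responses were 1.09 and 0.67, the latter under the 2-fold limit. *COR47* was at 8.99, 9.0, 8.35 and 8.85 in WT and at 9.92, 10.31, 9.78 and 9.94 in *cca1lhy* at 22 °C, and at 37 °C the genotypes overlapped at 10.93 to 11.41 and 10.93 to 11.21. Their interactions were -1.24 ± 0.24 (adjusted p = 0.0105) and -1.25 ± 0.20 (adjusted p = 0.00215).

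Of the 13 cold-response genes 4 were called, all lower, against 0.529% of all genes tested, and the list median was -1.08. The other 9 ranged from *KIN2*, at -1.32 with an adjusted p of 0.062, to the CBF inducer *ICE1* at 0.52. *CBF2* had -1.25 and *CBF3* -0.93 (adjusted p = 0.14 and 0.23), and *CBF1* 0.29 (adjusted p = 0.70). The genotype difference at 22 °C, for which 442 of all genes were called (1.72%, and 1.33% as higher), was called for 8 of the 13, all higher in *cca1lhy*, with a median of 1.18. At 37 °C, where 549 of all genes were called (2.13%, and 1.31% as higher), *COR15B* alone was higher, and the median was 0.15. CCGAC was in 5 of the 13 promoters and in 14.6% of all tested promoters.

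Outside the list, *ADS2* (AT2G31360), a fatty acid desaturase, fell in *cca1lhy* as *LTI78* did, but its genotypes stayed apart at 37 °C. *ADS2* was at 4.91, 4.56, 4.66 and 4.60 in WT at 22 °C, at 4.57, 4.40, 4.28 and 4.23 at 37 °C, at 6.86, 7.04, 7.27 and 7.10 in *cca1lhy* at 22 °C and at 5.25, 5.14, 5.60 and 5.26 at 37 °C. It fell by 1.76 in *cca1lhy*, with an interaction of -1.45 ± 0.19 (adjusted p = 0.000371). *CIPK20* (AT5G45820), a kinase of calcium signalling, rose in WT by 1.53, and its *cca1lhy* response was -0.44. *CIPK20* was at 3.19, 3.19, 2.13 and 3.36 in WT at 22 °C, at 5.01, 4.27, 3.85 and 4.86 at 37 °C, and at 5.55 to 6.33 in all 8 *cca1lhy* libraries (-1.97 ± 0.35, adjusted p = 0.0062).

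**Figure D2:**
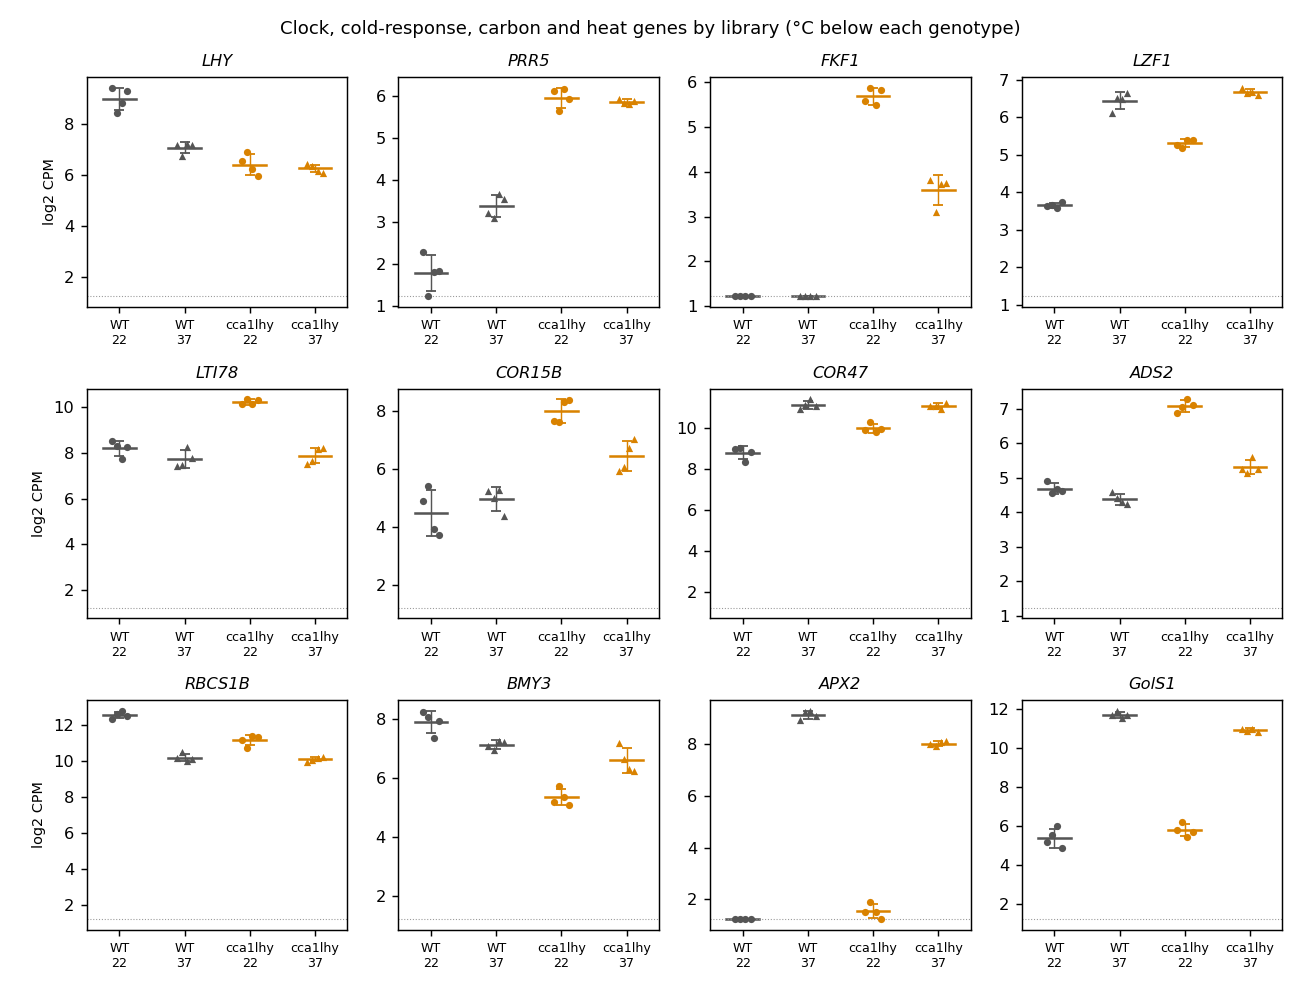
Log2 CPM of 12 clock, cold-response, carbon and heat genes in each of the 16 libraries, by genotype and temperature in °C. Points are libraries (circles 22 °C, triangles 37 °C), long bars the group means, short bars 1 SD (n = 4) and the dotted line the lowest value of 1.23. *LTI78*, *COR15B* and *ADS2* are highest in *cca1lhy* at 22 °C, and *FKF1* lies on the dotted line in all 8 WT libraries.

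The called genes of carbon fixation fell further in the heat in WT than in *cca1lhy*. *RBCS1B* (AT5G38430), a small subunit of Rubisco, was at 12.37, 12.61, 12.81 and 12.53 log2 CPM in WT at 22 °C and at 10.17, 10.50, 10.02 and 10.13 at 37 °C. In *cca1lhy* it was at 11.20, 10.76, 11.41 and 11.37 and at 9.98, 10.06, 10.20 and 10.26. The genotypes were apart at 22 °C and overlapped at 37 °C. *RBCS1B* fell by 2.38 in WT and by 1.06 in *cca1lhy*, an interaction of 1.32 ± 0.24 (adjusted p = 0.00792), and its close copy *RBCS2B* had 1.1 ± 0.22 (adjusted p = 0.0147). The *RBCS* copies are nearly alike in sequence, so reads may be shared between them. In the Calvin cycle list of 18 genes both were called, the median interaction was 0.55, and 16 genes were positive. In WT 11 of the 18 fell, in *cca1lhy* 5, and none rose, while of all genes 6.3% fell in WT and 6.28% in *cca1lhy*. *PRK*, *FBA2* and Rubisco activase *RCA* had 0.74, 0.83 and 0.88, with adjusted p of 0.12, 0.13 and 0.30.

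*FBA5* (AT4G26530), a cytosolic aldolase, was at 7.12, 7.58, 7.03 and 7.14 in WT at 22 °C and at 5.85, 6.20, 5.66 and 5.34 at 37 °C, and at 7.22, 6.90, 7.49 and 7.78 and at 7.65, 7.36, 7.63 and 7.94 in *cca1lhy*. The genotypes overlapped at 22 °C and separated at 37 °C. *FBA5* fell by 1.46 in WT, its *cca1lhy* response was 0.30, and the interaction was 1.76 ± 0.31 (adjusted p = 0.00525). *ATSPS4F* (AT4G10120), a sucrose-phosphate synthase, fell in WT by 2.62 and lay between 6.58 and 7.67 at 22 °C and between 4.17 and 4.91 at 37 °C. In *cca1lhy* it lay between 5.77 and 6.71 and between 5.33 and 5.57, a change of -0.81, and the interaction was 1.82 ± 0.33 (adjusted p = 0.0062). *GLDP1* (AT4G33010), the photorespiratory glycine decarboxylase, was at 11.17 to 12.24 in WT and 9.44 to 10.59 in *cca1lhy* at 22 °C, and at 9.60 to 9.92 and 9.54 to 9.77 at 37 °C (1.52 ± 0.33, adjusted p = 0.0224). Its call was lost without replicate 1 or replicate 4 of WT at 22 °C, with an adjusted p of up to 0.0516. *PHS2* (AT3G46970), a cytosolic glucan phosphorylase, moved oppositely. It was at 3.57 to 4.2 and 3.19 to 3.96 in WT and at 6.13 to 7.09 and 4.44 to 4.78 in *cca1lhy* (-1.71 ± 0.35, adjusted p = 0.0146, and 0.29 in the fit on recovered reads).

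*CAB1* (AT1G29930), an antenna protein also named *LHCB1.3*, sat at 15.09 in all 8 libraries at 22 °C, the highest value that the table holds. The authors' quantile normalization gives the top gene of each library the same value, so differences between those libraries cannot appear, and the interaction equals the genotype difference at 37 °C. At 37 °C it was at 13.16, 12.53, 12.49 and 12.49 in WT and at 14.37, 14.37, 14.37 and 15.09 in *cca1lhy*, with no overlap. The interaction was 1.89 ± 0.43 (adjusted p = 0.0301), and its call held in 9 of the 16 fits that leave out 1 library (adjusted p up to 0.0687, without replicate 4 of WT at 22 °C) and under 5 of the 9 alternatives (adjusted p up to 0.154). Of 21 light-harvesting genes *CAB1* was the called gene, and the median interaction was 0.35. The fall was called in 17 of them in WT and in 12 in *cca1lhy*, against 6.3% and 6.28% of all genes. In the chloroplast movement list of 10 genes, which holds the phototropins and the actin-linked protein *CHUP1*, no interaction was called by limma, and 6 were positive at an unadjusted p under 0.05, as were 6.58% of all genes. Its median was 0.62, with *CHUP1* at 1.35 (adjusted p = 0.14) and *PHOT1* at 0.86 (adjusted p = 0.23). A fall over 2-fold was called for 6 of the 10 in WT and for none in *cca1lhy*, against 6.3% and 6.28% of all genes. These counts are no test of a difference between the genotypes. The 9 leaf and shoot markers had a median of 0.56 with no call by limma and 3 positive at an unadjusted p under 0.05 (6.58% of all genes), and their part in the values of the photosynthesis genes was not tested.

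Starch and light-signalling genes included some of the largest differences. *BMY3* (AT5G18670), of the beta-amylase family, was at 8.24, 8.07, 7.36 and 7.92 in WT at 22 °C and at 7.10, 6.94, 7.26 and 7.23 at 37 °C, while in *cca1lhy* it went from 5.19, 5.72, 5.37 and 5.10 to 7.17, 6.65, 6.31 and 6.25. *BMY3* rose by 1.25 in *cca1lhy* and its WT response was -0.76, an interaction of 2.01 ± 0.30 (adjusted p = 0.00121). Of 18 starch breakdown genes *BMY3* was called higher and *PHS2* and *SEX4* lower, and the list median was -0.16. *SEX4*, a phosphoglucan phosphatase, had -1.36 ± 0.32 (adjusted p = 0.0386), and its call held in 6 of the 16 fits that leave out 1 library (adjusted p up to 0.0906, without replicate 2 of *cca1lhy* at 22 °C). The *SEX4* call also held under 6 of 8 alternatives, with -2.46 on recovered reads (adjusted p = 0.0674).

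The B-box factors *BBX14* and *LZF1* had interactions in opposite directions. *BBX14* (AT1G68520) was at 5.89, 5.70, 5.55 and 5.83 in WT and at 5.19, 5.33, 5.63 and 5.21 in *cca1lhy* at 22 °C, and at 5.90, 5.99, 5.24 and 5.01 and at 6.55, 6.48, 6.90 and 7.22 at 37 °C. It rose by 1.45 in *cca1lhy*, its WT response was -0.21, and all mutant libraries at 37 °C were above all WT libraries (1.66 ± 0.30, adjusted p = 0.00626). *LZF1* (AT1G78600), also named *BBX22*, which promotes light responses of seedlings, rose in both genotypes, by 2.79 in WT and by 1.37 in *cca1lhy*. *LZF1* started at 3.57 to 3.73 in WT and at 5.19 to 5.41 in *cca1lhy*, and the genotypes reached 6.12 to 6.65 and 6.60 to 6.79 at 37 °C (-1.42 ± 0.19, adjusted p = 0.000528). *PIL5* (AT2G20180), also named *PIF1*, a bHLH factor that represses seed germination in the dark, was at 4.43 to 4.66 and 4.06 to 4.82 in WT at 22 °C and 37 °C. In *cca1lhy* it rose by 1.32, from 3.33, 3.45, 3.71 and 4.06 to 5.14, 5.10, 4.70 and 4.86 (1.50 ± 0.26, adjusted p = 0.00432). Among 20 B-box genes there was no other call, and among the 9 *PIF* and *HFR1* genes *PIL5* was the called gene, with a list median of 0.51.

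The main heat shock genes rose strongly in both genotypes. Of 15 small heat shock proteins 14 rose in WT and the same number in *cca1lhy*, against 6.97% and 6.44% of all genes, with median responses of 9.52 and 8.69. No interaction was called among them by limma, and 6 were negative at an unadjusted p under 0.05, as were 6.57% of all genes. All 15 interactions were negative, with a median of -0.79 and a range from -1.76 for *HSP17.6C* (adjusted p = 0.36) to -0.17 for *HSP17.6A* (adjusted p = 0.91). The spread of these genes at 22 °C is large, and several are near the lowest value there. A link between the spread and the low values was not tested. The median genotype difference at 37 °C was -0.39. Of 26 other chaperone genes 23 rose in WT and 24 in *cca1lhy*, against 6.97% and 6.44% of all genes, and their median interaction was 0.23. Among them *CR88* (AT2G04030), the chloroplast HSP90, was called. *CR88* was at 7.14, 7.22, 7.43 and 7.40 in WT and at 6.34, 6.03, 6.37 and 6.12 in *cca1lhy* at 22 °C, and at 9.54, 9.41, 9.41 and 9.38 and at 9.23, 9.35, 9.32 and 9.23 at 37 °C. The genotypes were apart at both temperatures, by more at 22 °C (0.93 ± 0.19, adjusted p = 0.0131).

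*APX2* (AT3G09640), a cytosolic ascorbate peroxidase that removes hydrogen peroxide and is a marker of heat stress, was at the lowest value in all 4 WT libraries at 22 °C and at 1.50, 1.88, 1.52 and 1.23 in *cca1lhy*. At 37 °C it was at 8.92, 9.22, 9.28 and 9.09 in WT and at 8.0, 7.91, 8.06 and 8.10 in *cca1lhy*, a genotype difference of -1.11 without overlap (adjusted p = 2.7e-05). The interaction was -1.41 ± 0.21 (adjusted p = 0.00117, and -2.54 with 0.0717 in the fit on recovered reads). The sizes of both rises depend on the offset at the lowest value, and the genotype difference at 37 °C does not. The promoter of *APX2*, chr3:2955856-2956155 on the plus strand of TAIR10.1, is shown for the pair of heat shock elements that HSFs bind, GAANNTTC, in capitals.
APX2: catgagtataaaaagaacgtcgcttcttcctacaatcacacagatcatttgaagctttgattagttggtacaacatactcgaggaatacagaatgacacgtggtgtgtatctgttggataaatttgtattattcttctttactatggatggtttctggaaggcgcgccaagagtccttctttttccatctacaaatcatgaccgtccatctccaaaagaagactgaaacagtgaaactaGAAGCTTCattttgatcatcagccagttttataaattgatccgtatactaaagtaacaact

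That pair was in 14.3% of the promoters of lower genes, 16.3% of those of higher genes and 11.5% of those of all genes tested. *GolS1* (AT2G47180), which makes galactinol for the synthesis of raffinose, rose by 6.33 in WT and by 5.13 in *cca1lhy*. *GolS1* was at 4.86 to 5.99 and at 5.47 to 6.23 at 22 °C, where the genotypes overlapped, and at 11.55 to 11.93 and 10.84 to 11.01 at 37 °C, where they did not. Its interaction was -1.20 ± 0.27 (adjusted p = 0.0319), and the call held in 7 of the 16 fits that leave out 1 library (adjusted p up to 0.0824, without replicate 2 of *cca1lhy* at 22 °C) and under 7 of the 9 alternatives (up to 0.0626). *GolS1* overlaps the called gene *ARF1A1C* in the annotation. *GolS3* (AT1G09350), a relative induced by cold, was at 1.23 to 2.61 and 1.23 to 2.34 in WT, at 3.04 to 3.92 in *cca1lhy* at 22 °C and at 1.23 to 1.81 at 37 °C (-1.75 ± 0.41, adjusted p = 0.0374). The *GolS3* call held in 6 of the 16 fits that leave out 1 library (adjusted p up to 0.0847, without replicate 3 of *cca1lhy* at 22 °C) and under 5 of 8 alternatives (up to 0.106), with interactions from -0.89 to -3.40. Of the 11 other heat markers these 3 were called, all lower, against 0.529% of all genes, and the list median was -0.73. The coactivator *MBF1C* rose by 6.14 and 6.40, with an interaction of 0.26, and *DREB2A* had -0.84 (adjusted p = 0.29).

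No heat shock factor passed limma's test for the interaction, and 6 of 21 had an unadjusted p under 0.05, 2 positive and 4 negative, beside 13.1% of all genes. *HSFA1E* (AT3G02990), an activator of the early heat response, rose by 2.42 in WT and by 1.19 in *cca1lhy*. It was at 2.61 to 3.55 and 2.2 to 3.19 at 22 °C and at 5.19, 5.22, 5.53 and 5.63 in WT and 3.98, 3.76, 3.29 and 3.85 in *cca1lhy* at 37 °C, with an interaction of -1.24 ± 0.32 (adjusted p = 0.0667). It passed in 1 of the 16 fits that leave out 1 library (adjusted p from 0.021, without replicate 2 of WT at 22 °C, to 0.141) and under 2 of 9 alternatives (up to 0.226). *HSFA3* (AT5G03720), which acts later in the cascade, had the opposite sign. It was at 1.23 to 1.53 and 1.23 to 1.96 at 22 °C and at 2.81, 2.62, 3.67 and 3.81 in WT and 4.60, 4.76, 4.70 and 4.81 in *cca1lhy* at 37 °C (1.26 ± 0.35, adjusted p = 0.0851). *HSFA3* passed in 1 of the 16 fits (0.0328, without replicate 4 of WT at 37 °C, to 0.188) and under 1 of 8 alternatives (up to 0.439). The genotypes did not overlap at 37 °C for either factor, and the genotype difference there was called, at -1.67 and 1.49. The early factor *HSFA2* rose by 7.56 and 7.80 (interaction 0.24). The median of the 21 factors was -0.09.

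The called abscisic acid and water-deficit genes all had a lower response in *cca1lhy*. Of 30 abscisic acid genes 3 were called, all lower, against 0.529% of all genes, namely *AFP1*, *AFP2* and *AFP3*, which encode proteins that bind the factor ABI5 and dampen abscisic acid signalling. *AFP2* (AT1G13740) was at 4.05, 4.38, 3.57 and 4.24 in WT at 22 °C, at 5.22, 4.71, 4.78 and 5.41 at 37 °C, at 5.11, 4.89, 4.52 and 4.66 in *cca1lhy* at 22 °C and at 3.90, 4.12, 3.94 and 4.63 at 37 °C. The mutant was above WT in every library at 22 °C and below it in every library at 37 °C. The interaction was -1.62 ± 0.32 (adjusted p = 0.0117), and an overlapping gene without a symbol, AT1G05033, was also called. *AFP3* had -1.05 ± 0.22 (adjusted p = 0.0181) and *AFP1* -1.37 ± 0.30 (adjusted p = 0.0246, and up to 0.0636 without replicate 4 of WT at 22 °C). The median of the list was -0.55. Of 11 dehydrin and LEA genes 9 rose in WT and 3 in *cca1lhy* (6.97% and 6.44% of all genes), with a median interaction of -0.94. *LEA14* was the called gene, at -1.32 ± 0.29 (adjusted p = 0.0277), and its call held in 9 of the 16 fits that leave out 1 library (up to 0.0687, without replicate 4 of WT at 22 °C) and under 8 of the 9 alternatives (up to 0.0746).

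**Figure D3:**
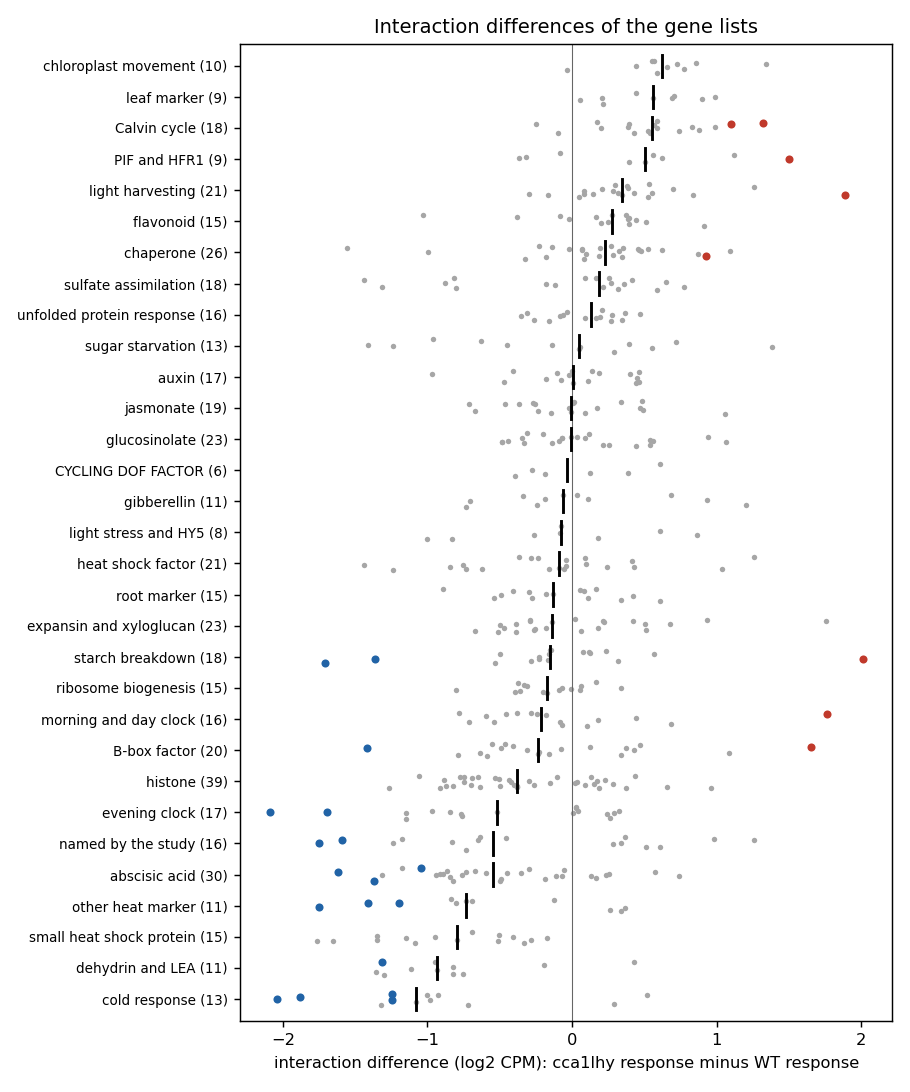
Interaction difference in log2 CPM, *cca1lhy* response minus WT response, for the members of the gene lists, with the number tested in brackets and lists ordered by their median (black bar). Red and blue points passed the test and grey points did not. The cold-response list has the lowest median, -1.08, and the chloroplast movement list the highest, 0.62.

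A further list held 16 of the genes that the study names, not all of them, and leaves out its clock genes such as the called *LHY*. In it *GolS3* and AT2G39710 were called lower, against 0.529% of all genes. AT2G39710, an aspartyl protease family gene, fell from 4.54, 4.50, 4.33 and 4.35 to 3.09, 2.80, 3.46 and 2.60 in WT and from 4.96, 5.01, 4.92 and 4.90 to 1.23, 1.86, 1.81 and 2.78 in *cca1lhy*. Its interaction was -1.59 ± 0.34 (adjusted p = 0.0233, and 0.0524 without replicate 4 of WT at 22 °C). AT2G39710 also lost its call with values below 2.5 raised to 2.5, at -0.94 (adjusted p = 0.0655), and with the 22 °C and 37 °C libraries alone, and had -2.44 on recovered reads. The other 14 ranged from *HSFA1E* to *HSFA3*. They include *ELIP1*, a light-stress protein of the thylakoid, at -0.83 (adjusted p = 0.29), and *GA3OX1*, of gibberellin synthesis, at -0.73 (adjusted p = 0.37). *HB21* had 0.37 (adjusted p = 0.71), *BBX30* -0.63 (adjusted p = 0.47) and *LHCB2.3* 0.29 (adjusted p = 0.72). *EXPA1* had 0.51, *BT4* 0.34, *IDD2* -0.65, AT5G40790 -1.17 and *FP3* -0.46, and none of these was called. The study chose genes of this list on libraries of this series, some of them at ZT6, so their values at ZT1 are given as a description.

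The remaining large interactions came from genes of diverse roles. *ZF3* (AT5G43170), a C2H2 zinc finger protein, was at 2.46, 2.67, 2.38 and 2.59 in WT and 2.95, 2.67, 2.1 and 2.98 in *cca1lhy* at 22 °C, and at 4.98, 5.42, 5.27 and 5.69 and at 3.24, 3.67, 3.19 and 3.20 at 37 °C. *ZF3* rose by 2.82 in WT and changed by 0.65 in *cca1lhy* (-2.17 ± 0.32, adjusted p = 0.00121). Its neighbour *QWRF9*, which overlaps it in the annotation, had -1.80 ± 0.32 (adjusted p = 0.00626), and since the strand of the counting is not given in the sources used here, reads of this pair cannot be told apart. *WRKY7* (AT4G24240) rose in WT by 1.04, from 3.64, 4.03, 3.92 and 3.87 to 4.74, 5.10, 5.05 and 4.72. In *cca1lhy* it went from 4.50, 4.46, 3.86 and 4.29 to 3.61, 3.57, 3.29 and 3.91, a change of -0.68 (-1.72 ± 0.24, adjusted p = 0.000583). *UCP5* (AT2G22500), a mitochondrial carrier, was at 3.83 to 4.31 and 3.96 to 4.56 in WT and fell in *cca1lhy* by 1.21, where it lay between 4.70 and 4.98 at 22 °C and between 3.38 and 3.85 at 37 °C (-1.48 ± 0.24, adjusted p = 0.00229).

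Higher in *cca1lhy* was *CYP72A8* (AT3G14620), a cytochrome P450, which rose in both genotypes. It went from 5.45, 5.44, 5.37 and 5.36 to 7.60, 7.47, 7.16 and 7.43 in WT and from 4.08, 4.52, 4.64 and 4.26 to 7.97, 7.79, 8.09 and 7.87 in *cca1lhy*. The mutant was below WT in all libraries at 22 °C and above it in all at 37 °C (1.54 ± 0.22, adjusted p = 0.000853). The cellulose synthase-like gene *CSLB04* (AT2G32540) also changed sides. It lay between 4.80 and 5.50 in WT and between 3.90 and 4.54 in *cca1lhy* at 22 °C, and between 4.03 and 4.62 and between 4.91 and 5.35 at 37 °C (1.66 ± 0.26, adjusted p = 0.00218). *BEE2*, a bHLH factor of brassinosteroid responses, fell in WT by 1.73 and had a *cca1lhy* response of -0.11 (1.62 ± 0.29, adjusted p = 0.00737). *ORP2A*, an oxysterol-binding protein relative, fell by 2.36 in WT, and its *cca1lhy* response was -0.60 (1.76 ± 0.34, adjusted p = 0.0117, and 2.76 on recovered reads). The ferric reductase *FRO7* (AT5G49740) was at 5.18 to 6.87 and 4.39 to 5.10 in WT and at 5.67 to 6.00 and 6.20 to 6.51 in *cca1lhy* (1.87 ± 0.37, adjusted p = 0.0117). Its tandem neighbour *FRO6* had 1.68 ± 0.40 (adjusted p = 0.0386), and that call held in 5 of the 16 fits that leave out 1 library (up to 0.0929, without replicate 4 of WT at 22 °C) and under 6 of the 9 alternatives (up to 0.0738).

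**Figure D4:**
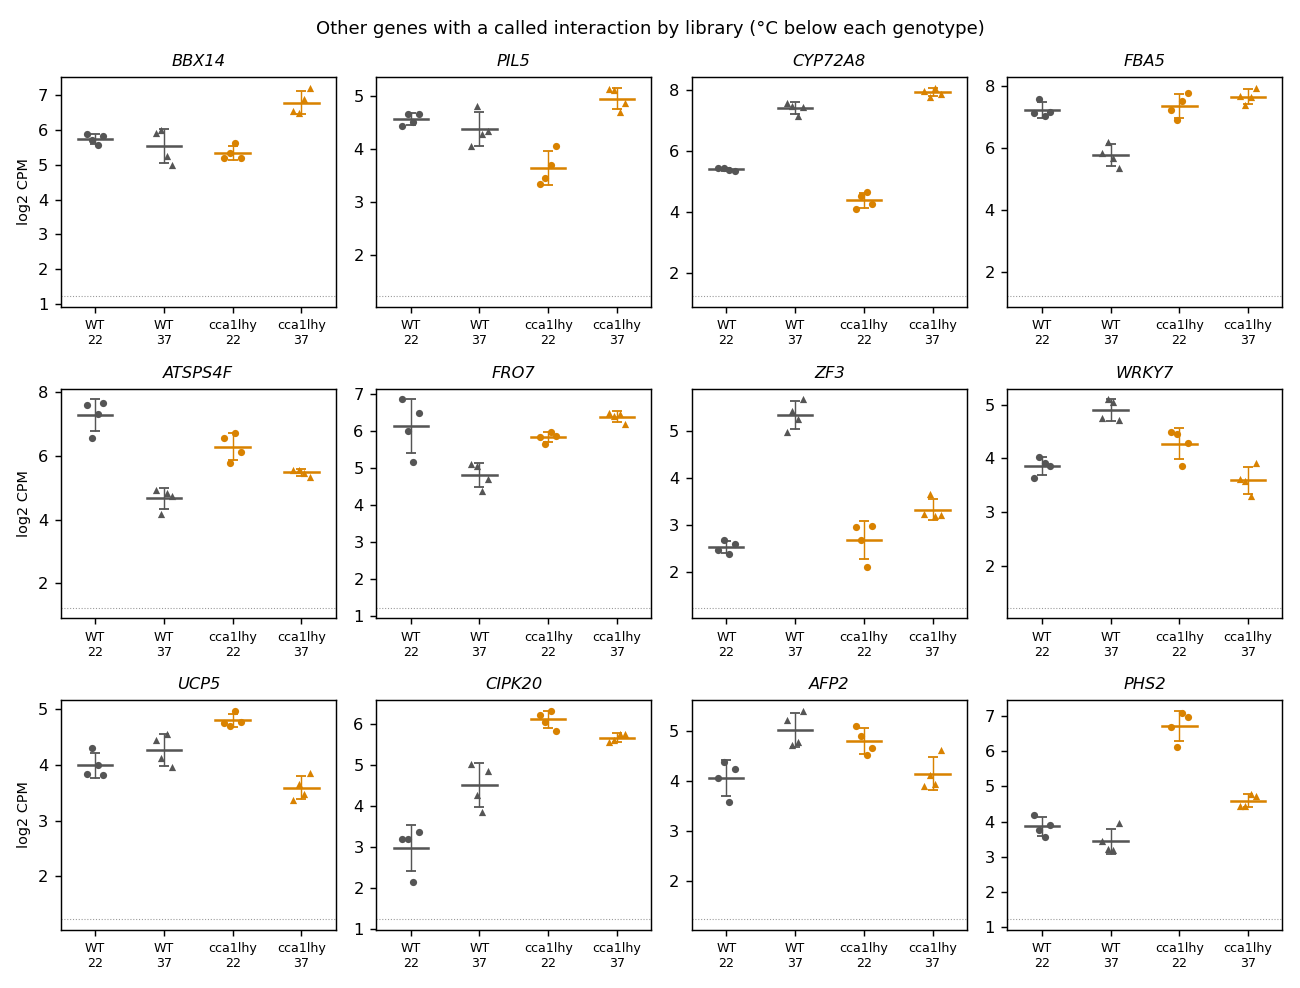
Log2 CPM of 12 further called genes in each of the 16 libraries, by genotype and temperature in °C, with points, bars and dotted line as in the plot of clock and cold-response genes. *CYP72A8* in *cca1lhy* lies below WT at 22 °C and above it at 37 °C, and *AFP2* does the opposite.

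The remaining named calls followed these shapes. *DIP2* (AT5G03210) rose by 3.54 in WT, where it reached 7.22 to 7.31 at 37 °C, and by 1.85 in *cca1lhy*, where it reached 6.45 to 6.84 (-1.69 ± 0.35, adjusted p = 0.018). *PP2-B11* rose by 2.15 in WT and changed by 0.70 in *cca1lhy* (-1.45 ± 0.33, adjusted p = 0.0319), and its call held in 8 of the 16 fits that leave out 1 library (up to 0.0806, without replicate 2 of *cca1lhy* at 22 °C) and under 8 of the 9 alternatives (up to 0.0649). *PAI2*, of tryptophan synthesis, fell by 1.63 in *cca1lhy* and had a WT response of -0.18 (-1.46 ± 0.30, adjusted p = 0.0163, and 0.0873 on recovered reads). *DEAR2*, of the DREB family, rose by 1.34 in *cca1lhy* and had a WT response of -0.15 (1.49 ± 0.33, adjusted p = 0.0262, up to 0.066 without replicate 4 of WT at 22 °C, and 0.0505 with array weights).

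The same interactions can be read as genotype differences. Of the 136 lower genes 26 were called higher in *cca1lhy* than in WT at 22 °C and not at 37 °C, 7 were called higher at both, 47 were called lower at 37 °C and not at 22 °C, and 56 were called at neither. Of the 99 higher genes 21 were called lower in *cca1lhy* at 22 °C and not at 37 °C, 21 were called higher at 37 °C and not at 22 °C, and the other 57 were called at neither. The genotype difference was smaller in size at 37 °C than at 22 °C in 59 of the 99 and in 57 of the 136. *LHY*, *BMY3*, *LTI78*, *COR47* and *RBCS1B* were among those whose genotypes came closer in the heat, and *FBA5*, *ZF3* and *WRKY7* among those that moved apart. *CAB1*, at the highest value at 22 °C, cannot be placed in either group, although its numbers count it with the genes that moved apart.

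**Figure D5:**
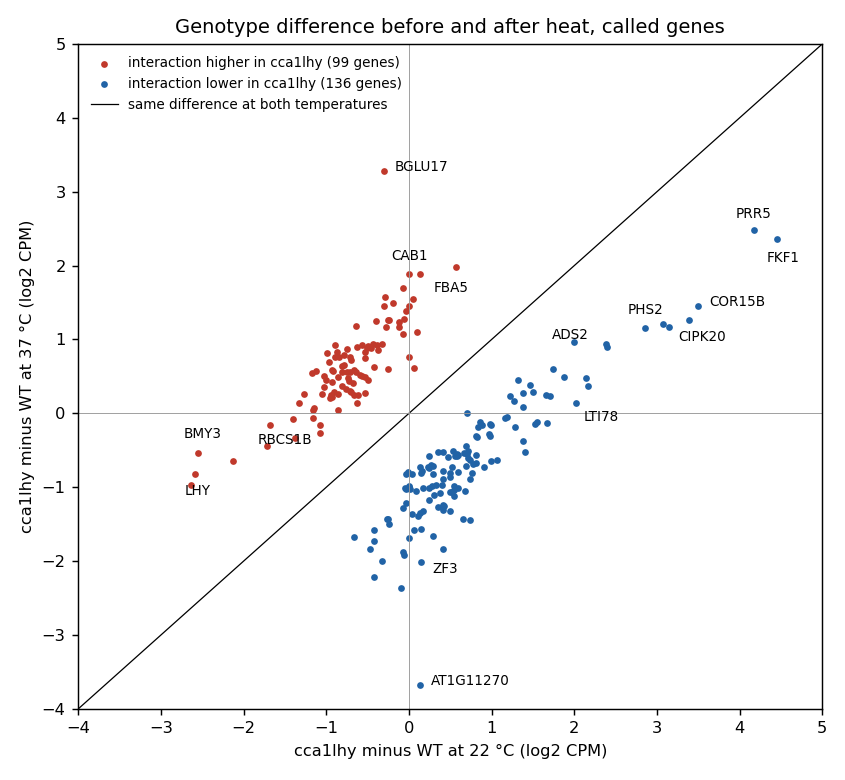
Genotype difference, *cca1lhy* minus WT in log2 CPM, at 22 °C (x axis) and 37 °C (y axis) for the 235 called genes, with the line of equal difference. *PRR5* and *FKF1* lie far right, at 4.17 and 4.45 at 22 °C and at 2.48 and 2.36 at 37 °C, whereas *ZF3* lies near 0 at 22 °C and at -2.01 at 37 °C.

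The genotype difference at 37 °C was also set against that at 10 °C, which leaves out the 22 °C libraries. The depth of the libraries compared was unlike, at 1.27 to 1.94 M reads at 37 °C and 1.72 to 11.1 M at 10 °C. This contrast was called for 75 genes, 0.292% of those tested, 37 higher and 38 lower at 37 °C. *FKF1* had -3.60 (adjusted p = 4.3e-08), *LZF1* -2.07 (adjusted p = 3e-06), *PRR5* -2.07 (adjusted p = 0.00062), *ADS2* -1.16 (adjusted p = 0.0071) and *LHY* 1.99 (adjusted p = 0.00091). *BMY3* had 1.62 (adjusted p = 0.022), *FBA5* 1.75 (adjusted p = 0.015), *ATSPS4F* 1.84 (adjusted p = 0.015) and *BBX14* 1.47 (adjusted p = 0.037). The cold-response genes did not pass it, with -0.56 for *LTI78* (adjusted p = 0.71) and 0.13 for *COR15B* (adjusted p = 0.98). The interaction with 10 °C, which shares the 22 °C libraries with that at 37 °C, was called for 3 genes (0.0117%), all lower, namely AT1G05870, AT1G13480 and AT5G20190, none with a symbol, and 1076 genes had an unadjusted p under 0.05. In it *LTI78* had -1.32 and *COR15B* -2.17, beside -1.88 and -2.04 at 37 °C, while *PRR5* had 0.38 and *FKF1* 1.51, beside -1.69 and -2.09. In WT *FKF1* was at 1.33 to 1.82 at 10 °C and at the lowest value at 22 °C and 37 °C. Its values in both contrasts with 10 °C thus rest mainly on *cca1lhy*.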

How the data were processed

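RNA-seq libraries of whole seedlings were compared in groups of genotype and temperature at ZT1, as the labels give them. Per the labels and the study's methods, the authors removed adapters (cutadapt), aligned the reads to the TAIR10 genome using Bowtie2 (version 2.2.5) within TopHat2 (version 2.0.14), and counted reads on Araport11 exons. The authors then added an offset of 5 to each count, scaled libraries by edgeR and ran voom of limma under quantile normalization. The deposited numbers are therefore log2 CPM, and ZT1 and ZT6 were normalized apart. The tables also hold the authors' own fold changes and p-values, which were not used. Quantile normalization gives every library the same set of values, so differences between whole libraries are not visible.

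Here limma (3.58.1, R 4.3.3) was fitted with a trend to the 23 ZT1 libraries as 6 group means, for genes with reads in 3 or more libraries, with Benjamini-Hochberg adjustment over all 25727 genes tested. Interactions were called at an adjusted p under 0.05, responses and genotype differences also at a change over 1 on the log2 scale. The log2 differences of low genes are understated because of the offset. Reads per library were recovered approximately from the steps of the deposited values, and served for depth and for an alternative fit with voom weights (offset 0.5). The limma code was tested on simulated data first. Alternatives changed the trend, the filter, the scaling, the weights, the libraries fitted and the replicate block. Of the gene identifiers 37751 occur in the RefSeq TAIR10.1 annotation, from which symbols, neighbours and promoter sequence were taken.

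Genes are named by a rule. It takes *CCA1* and *LHY*, up to 4 called members of each of 33 gene lists, and a list of 16 genes named by the study. It adds the 15 largest interactions each way among called genes with a symbol and a mean of at least 3 log2 CPM over the 16 libraries. Other members of the lists are given as examples. The members and lists were chosen with earlier results of these data known. The labels give 4 biological replicates a group but do not say from which plants or plates they came, so p-values measure the spread between these libraries.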

Additional observations from a re-analysis of the deposited data

Results flagged for a closer look

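The 37 °C response differed between WT and *cca1lhy* in 235 genes by the interaction term of limma at an adjusted p under 0.05. With the 22 °C and 37 °C libraries alone the count was 120.

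Of 230 groups of 4 libraries, for the named genes and 22 °C or 37 °C, 13 (5.65%) had a library far from the other 3. Chance alone gives about 1 in 20. *CCA1* was at 5.29 in replicate 2 of *cca1lhy* at 22 °C against 2.03 to 2.48 in the others. In the same library *DIP2* was at 5.51 against 4.47 to 4.57 and *RBCS2B* at 10.3 against 10.7 to 10.8. *LHY* was at 6.74 in replicate 2 of WT at 37 °C against 7.15 to 7.21. *CAB1* was at 13.2 in replicate 1 of WT at 37 °C against 12.5, and at 15.1 in replicate 4 of *cca1lhy* at 37 °C against 14.4. In replicate 2 of *cca1lhy* at 37 °C *ZF3* was at 3.67 against 3.19 to 3.24 and *FKF1* at 3.09 against 3.73 to 3.81, and in replicate 3 of that group *GolS3* was at 1.81 against 1.23. *CIPK20* was at 2.13 in replicate 3 of WT at 22 °C against 3.19 to 3.36. In replicate 1 of WT at 22 °C *SEX4* was at 2.13 against 2.59 to 2.67, *EXPA1* at 8.84 against 8.49 to 8.53 and *FP3* at 7.06 against 7.52 to 7.56. All values are log2 CPM.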

How the results depend on the processing

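Of the 235 interactions 65, 33 higher and 32 lower, were called in all 16 fits that leave out 1 library and under every alternative that tested them. The filters of some of the 9 alternatives removed some of these genes. None of the 235 changed sign. The count was 120 (59 higher, 61 lower) with the 22 °C and 37 °C libraries alone, 115 of them among the 235, 367 (159 and 208) with values below 2.5 raised to 2.5, and 125 (60 and 65) with recovered reads and voom weights. Without 1 library it lay between 140 (without replicate 4 of WT at 22 °C) and 314 (without replicate 2 of that group), and in the other alternatives between 206 and 279. Recovered reads gave 5316 genes for the WT response and 5389 for the *cca1lhy* response. Leaving out 1 library gave 3342 to 3648 and 3255 to 3427 genes for these, and 419 to 472 and 525 to 633 for the genotype difference at 22 °C and 37 °C. The 37 °C against 10 °C contrast gave 188 with values raised to 2.5, 179 with array weights, and 46 (without replicate 3 of *cca1lhy* at 37 °C) to 92 without 1 library. The cause of these shifts was not tested. Replicate numbers showed little sign of pairing the libraries. Of 24 same-numbered pairs across groups 2 had deviations correlated above 0.1, the highest at 0.29, and 2 below -0.1. Of 16 libraries 2 correlated best with their own number. The labels do not say whether libraries of the same number were handled together. A replicate block ended the call of *CAB1* among the named genes and gave 279 interactions, 3414 and 3276 responses, 446 and 552 genotype differences and 71 genes for 37 °C against 10 °C. Of the called genes 32 higher and 46 lower ones had means below 3 log2 CPM, where few reads limit the precision.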

Other observations

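Genes outside the naming rule, chosen after their values were seen, include the largest interactions in both directions. *BGLU17* (AT2G44480), a beta-glucosidase, was at 2.59, 2.67, 1.81 and 2.02 log2 CPM in WT at 22 °C and at 1.81, 2.17, 1.94 and 1.23 at 37 °C. In *cca1lhy* it went from 2.29, 2.67, 1.68 and 1.23 to 4.86, 5.35, 4.87 and 5.17, an interaction of 3.58 ± 0.39 (adjusted p = 3.6e-05 in limma). AT1G11270, an F-box family gene without a symbol, was the reverse. It went from 1.96, 1.84, 2.13 and 2.18 to 5.01, 4.99, 5.58 and 5.87 in WT and from 2.56, 2.22, 1.68 and 2.2 to 1.23, 1.23, 1.81 and 2.47 in *cca1lhy* (-3.82 ± 0.38, adjusted p = 1.2e-05). Both genes had nearly the same level in the genotypes at 22 °C and no overlap at 37 °C, and both were called under every alternative that could be run for them and without any 1 library.

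AT3G10020, also without a symbol, rose by 8.14 in WT and by 6.34 in *cca1lhy* (-1.81 ± 0.35, adjusted p = 0.0117). It lay between 3.07 and 4.75 in WT and between 5.34 and 6.12 in *cca1lhy* at 22 °C, and at 37 °C the genotypes overlapped, between 11.86 and 12.15 and between 11.76 and 12.08. The splicing factor *SR30* rose by 3.28 and 2.17 (-1.11 ± 0.21, adjusted p = 0.00792), and the metallothionein *MT2A* rose by 2.19 in WT and had a *cca1lhy* response of 0.96 (-1.23 ± 0.25, adjusted p = 0.0146). Both were higher in *cca1lhy* at 22 °C, by 1.28 and 1.16, and met WT at 37 °C, with differences of 0.16 and -0.07. The auxin transporter *PIN3* fell by 1.42 in WT and had a *cca1lhy* response of -0.24 (1.18 ± 0.24, adjusted p = 0.0175).

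Of the 235 called genes 30 overlap another called gene in the annotation, as 15 pairs that were all called in the same direction. Without the strand of counting the members of such a pair cannot be told apart. An overlap with any annotated gene occurred for 38.7% of the called genes and for 35.5% of all tested genes with a position.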
